A study of Mus musculus with 6 samples.

Results

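T cell receptor signaling genes were followed in articular cartilage of young and aged mice. The set holds 10 genes of the 33971 in the deposited expression table, found by their gene symbols, and all 10 were in the table. They are the CD3 chain genes Cd3e, Cd3d and Cd3g, the zeta chain gene Cd247, the co-receptor genes Cd4, Cd8a and Cd8b1, the kinase genes Lck and Zap70, and the adaptor gene Lat. The bulk RNA sequencing compared wild-type (WT) cartilage at 2 months of age (3 libraries) with WT cartilage at 18 months (3 libraries). No treatment or transgene was applied to either age. The study asked how gene expression in articular cartilage changes with age. The labels give no strain, and they do not say whether a library came from 1 mouse or from pooled mice, so the p-values measure the spread between these libraries only.

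The T cell receptor is a pair of clonotypic chains that bind a peptide on an MHC molecule and cannot signal by themselves. Signaling runs through the CD3 chains and the zeta chain, whose cytoplasmic tyrosines are phosphorylated by the kinase Lck, which is brought in by the co-receptors CD4 and CD8. ZAP-70 docks on the phosphorylated chains and phosphorylates LAT, a membrane scaffold from which calcium, Ras and NF-kappaB signaling start. Healthy articular cartilage has no blood vessels and is populated by chondrocytes. T cells are found in blood, lymphoid organs, bone marrow and synovium, next to or under the cartilage.

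The libraries differed in more than age, and these differences touch every result on the T cell receptor genes. The 2-month libraries held 48171507 to 51683577 counts and the 18-month libraries 55201357 to 59085179. The methods state male mice, but Xist, the RNA that silences an X chromosome, ranged from 88239 to 102417 counts at 2 months and from 11 to 30 at 18 months. The Y-linked genes Ddx3y, Kdm5d, Uty and Eif2s3y had 0 to 39 counts at 2 months and 1189 to 5616 at 18 months. Age and this sex pattern cannot be told apart. A list of 15 chondrocyte genes took 7.47% to 8.80% of all counts at 2 months and 0.195% to 0.844% at 18 months, and all 15 were below in every 18-month library, as were 34.6% of all tested genes. The 2-month replicate 2 also stood apart from the other 2-month libraries: 12 neutrophil genes took 0.351% of its counts against 0.000645% and 0.00547% in replicates 1 and 3, and 3.93% to 4.24% in the 18-month libraries. In bulk RNA, more T cells and more RNA per T cell cannot be told apart.

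The members are spread over several chromosomes, and only the CD3 genes and the CD8 genes are neighbours. The table gives Ensembl identifiers and coordinates without naming a build, but 29627 of the 33865 genes also listed in GENCODE M21, a mouse annotation of GRCm38, had the same start and end in it (87.5%), and positions are given on that build. The 3 CD3 genes lie together on chromosome 9 within 40051 bases. Cd3g (ENSMUSG00000002033, chr9:44969572-44980431, minus strand) and Cd3d (ENSMUSG00000032094, chr9:44981786-44987339, plus strand) face away from each other, with starts 1355 bases apart. Cd3e (ENSMUSG00000032093) lies next to them at chr9:44998740-45009622 on the minus strand. The CD8 genes are neighbours on the plus strand of chromosome 6, Cd8b1 (ENSMUSG00000053044) at chr6:71322788-71337494 and Cd8a (ENSMUSG00000053977) at chr6:71373427-71379169, with 35933 bases between them. Cd4 (ENSMUSG00000023274) is on the same chromosome at chr6:124864692-124888221, minus strand. Lck (ENSMUSG00000000409) is at chr4:129548344-129558391, minus strand, and GENCODE places a further start 15250 bases upstream of the one in the table. Cd247 (ENSMUSG00000005763, chr1:165788681-165871153) and Zap70 (ENSMUSG00000026117, chr1:36761798-36782818) are on the plus strand of chromosome 1, and Lat (ENSMUSG00000030742) is at chr7:126363824-126369570 on the minus strand.

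The RefSeq windows of 250 bases upstream of the start (build GRCm38.p6) are shown for the 3 linked CD3 genes, which had few or no counts in 2-month replicates 1 and 3, and for both starts of Lck, which was counted in every library. Capitals mark, on either strand, the core letters of sites for 3 kinds of factor, which are GATAA for GATA factors, TGTGGT for RUNX factors and CTTTGA for TCF/LEF factors. The windows lie at chr9:44980432-44980681 (Cd3g, minus), chr9:44981536-44981785 (Cd3d, plus), chr9:45009612-45009861 (Cd3e, minus), chr4:129573642-129573891 (Lck, upstream start, minus) and chr4:129558373-129558622 (Lck, downstream start, minus), and all are written 5′ to 3′ on the strand of the gene.
Cd3g: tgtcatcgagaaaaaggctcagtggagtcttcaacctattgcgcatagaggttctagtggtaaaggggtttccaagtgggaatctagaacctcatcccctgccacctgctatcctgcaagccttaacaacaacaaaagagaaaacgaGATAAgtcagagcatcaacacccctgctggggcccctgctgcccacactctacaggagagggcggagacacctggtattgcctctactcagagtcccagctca
Cd3d: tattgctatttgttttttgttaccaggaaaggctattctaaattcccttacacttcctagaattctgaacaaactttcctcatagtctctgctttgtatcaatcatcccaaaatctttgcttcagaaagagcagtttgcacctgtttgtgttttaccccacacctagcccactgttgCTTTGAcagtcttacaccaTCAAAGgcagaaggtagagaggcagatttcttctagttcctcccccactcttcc
Cd3e: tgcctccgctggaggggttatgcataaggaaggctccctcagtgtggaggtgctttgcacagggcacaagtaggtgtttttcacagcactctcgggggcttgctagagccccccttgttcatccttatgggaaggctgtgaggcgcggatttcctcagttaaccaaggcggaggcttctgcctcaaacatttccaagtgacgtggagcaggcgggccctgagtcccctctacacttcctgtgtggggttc
Lck, upstream start: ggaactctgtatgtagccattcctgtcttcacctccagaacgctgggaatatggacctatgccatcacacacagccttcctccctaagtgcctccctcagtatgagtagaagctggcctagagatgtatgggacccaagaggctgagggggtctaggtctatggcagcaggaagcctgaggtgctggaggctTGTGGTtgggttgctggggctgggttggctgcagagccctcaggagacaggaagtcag
Lck, downstream start: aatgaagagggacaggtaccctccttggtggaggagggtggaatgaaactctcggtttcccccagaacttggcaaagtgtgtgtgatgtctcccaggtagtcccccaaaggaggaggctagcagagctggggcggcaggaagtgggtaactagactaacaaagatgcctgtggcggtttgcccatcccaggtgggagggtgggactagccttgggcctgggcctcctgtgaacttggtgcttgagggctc
RefSeq gave 11 such windows for 8 of the members, and Cd4 and Cd8b1 were not matched. GATAA was in 2 of the 11 windows (Cd3g and Cd8a) and in 22.6% of all 32851 windows. TGTGGT was in 2 (the upstream Lck window and a Zap70 window) against 14.0%, and CTTTGA in 2 (Cd3d and a Zap70 window) against 13.8%. The ETS core GGAA was in 10 of 11 windows against 93.4%, and the E box CANNTG in 10 of 11 against 66.2%. Motifs were counted on both strands and separately where they overlapped, and a match describes letters, not a bound site.

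All 10 genes were nearly absent from the 2-month libraries, except replicate 2, and were present in each 18-month library. Summed over the members, the 2-month replicates 1, 2 and 3 held 75, 878 and 163 counts and the 18-month replicates 6448, 5722 and 5835. In FPKM, which scales counts by transcript length and library total, the sums were 0.44, 4.79 and 0.912 at 2 months and 32.8, 31.2 and 31.5 at 18 months. Replicate 2 was thus the highest of the 2-month libraries, the 18-month libraries lay close together, and the ages did not overlap. In edgeR's quasi-likelihood test, with p-values adjusted by the Benjamini-Hochberg method over 20397 genes, a gene was called at an adjusted p below 0.05 and a log2 fold change above 1 or below −1. Of the 10 members, 8 were called higher at 18 months, where 14.9% of all tested genes were (36.3% were called in either direction), and Cd4 and Zap70 missed the limit on adjusted p. All 10 were above in every 18-month library, as were 33.9% of all tested genes. However, 8 members, all but Lck and Lat, reached the count that the filter on low counts asks for in the 18-month libraries but not in every 2-month library. Among the 2342 tested genes of that kind, 35.2% were called higher and 74.3% were above in every library. The counts of members called are therefore given as a description.

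**Figure D1:**
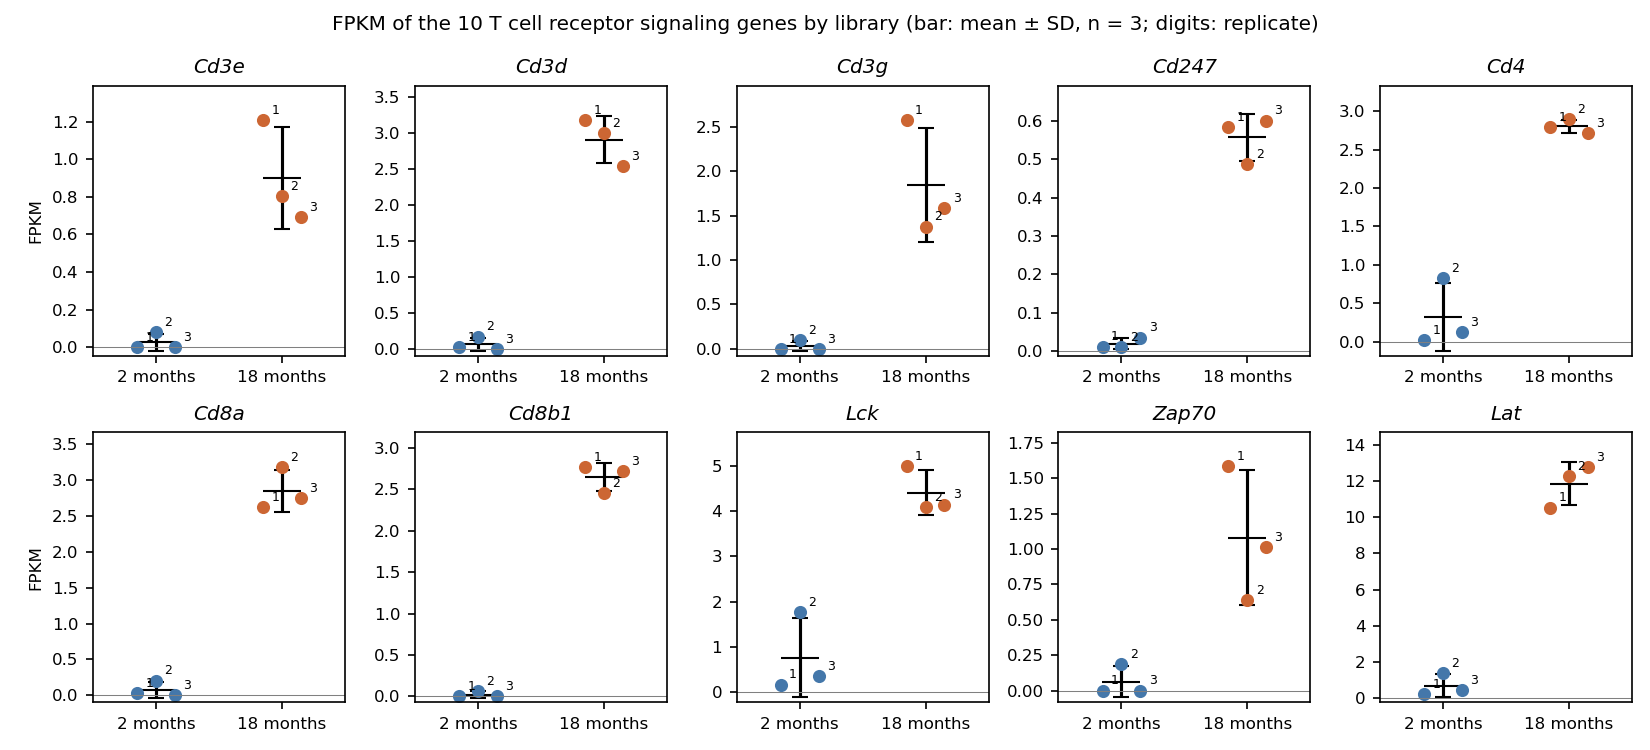
FPKM (vertical axis, linear, own scale for each gene) of each of the 10 genes in the 3 libraries per age. Points are libraries numbered by replicate, and bars are the mean ± SD, n = 3. Every 18-month point lies above every 2-month point, and 2-month replicate 2 is the highest young library for all genes except Cd247.

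The 3 CD3 genes, which code for the epsilon, delta and gamma chains of the receptor complex, were close to 0 at 2 months. Cd3e had 0, 21 and 0 counts in 2-month replicates 1, 2 and 3 and 333, 208 and 181 counts in the 18-month replicates. Its FPKM rose from 0.0268 ± 0.0465 (SD, n = 3) to 0.901 ± 0.271, a log2 fold change of 4.89 (SE 1.46, edgeR adjusted p = 0.0353). All of its young signal came from replicate 2. Cd3d had 5, 20 and 0 counts at 2 months against 389, 344 and 296 at 18 months. In FPKM it rose from 0.0699 ± 0.0938 to 2.91 ± 0.325, with a log2 fold change of 5.14 (SE 1.11, edgeR adjusted p = 0.0121). Cd3d was the highest of the 3 CD3 genes in FPKM in every aged library. Cd3g had 0, 20 and 0 counts at 2 months and 566, 285 and 331 at 18 months. The FPKM of Cd3g rose from 0.0332 ± 0.0576 to 1.84 ± 0.639, with a log2 fold change of 5.66 (SE 1.47, edgeR adjusted p = 0.0224). The 3 neighbouring genes shared a young pattern of about 20 counts in replicate 2 and at most 5 elsewhere. At 18 months Cd3g and Cd3e were highest in replicate 1, by 1.67 and 1.55 times the mean CPM (counts scaled to library size) of replicates 2 and 3, whereas the ratio for Cd3d was 1.1.

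Cd247, which codes for the zeta chain that carries most of the phosphorylation motifs of the complex, was the one member that was not raised in 2-month replicate 2. It had 4, 4 and 12 counts at 2 months and 211, 165 and 205 at 18 months. Its FPKM rose from 0.0194 ± 0.0139 to 0.557 ± 0.0604, a log2 fold change of 4.55 with the smallest SE of the members (0.57, edgeR adjusted p = 0.0024). It was also the least abundant member at 18 months, and its 18-month FPKM of 0.488 to 0.600 did not overlap that of Cd3e, the next higher gene (0.693 to 1.21).

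The co-receptor genes split into Cd8a and Cd8b1, which were called, and Cd4, which was not. Cd8a, the alpha chain of the co-receptor for MHC class I, had 6, 44 and 0 counts at 2 months and 644, 731 and 638 at 18 months. In FPKM it went from 0.0775 ± 0.111 to 2.85 ± 0.295, with a log2 fold change of 5.15 (SE 1.31, edgeR adjusted p = 0.0209). Cd8b1, the beta chain that pairs with it on conventional CD8 T cells, had 0, 6 and 0 counts at 2 months and 277, 230 and 257 at 18 months. Its FPKM rose from 0.0216 ± 0.0374 to 2.65 ± 0.167, and its log2 fold change of 6.70 was the largest estimate among the members (SE 1.13, edgeR adjusted p = 0.0055). The estimate ± SE of Cd8b1 overlaps that of Cd3g (5.66, SE 1.47), among others, so its rank as the largest is not resolved. Cd4, the co-receptor for MHC class II, had 4, 197 and 28 counts at 2 months and 759, 736 and 699 at 18 months. Its FPKM was 0.322 ± 0.439 at 2 months and 2.80 ± 0.0892 at 18 months, the tightest aged values of the set relative to their mean. The log2 fold change was 3.09 (SE 1.18, edgeR adjusted p = 0.0715), and the ages did not overlap. In 2-month replicate 2 Cd4 reached 29.4% of its mean 18-month CPM, against 7.15% for Cd8a and 2.58% for Cd8b1. The FPKM ratio of Cd4 to Cd8a was 4.03 in that library and 1.06, 0.908 and 0.988 in the 18-month replicates. In 2-month replicate 1 it was 0.597, below these, on 4 and 6 counts. The ratio of Cd8b1 to Cd8a was 0.317 in 2-month replicate 2, 0 in replicate 1 and 1.06, 0.771 and 0.990 at 18 months. In replicate 3 Cd8a had 0 counts. The young ratios of 4.03 and 0.317 rest on 1 library and on 6 to 197 counts.

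Of the kinase genes, Lck was called near the limit and Zap70 was not called. Lck, the Src family kinase that phosphorylates the CD3 and zeta chains, had 27, 305 and 58 counts at 2 months and 986, 758 and 776 at 18 months. Its FPKM rose from 0.758 ± 0.873 to 4.41 ± 0.503, and its log2 fold change of 2.50 (SE 0.84, edgeR adjusted p = 0.0499) was the smallest of the set and just inside the limit. Unlike the CD3 genes, Lck was counted in every young library, and in replicate 2 it reached 39.9% of its mean 18-month CPM. Zap70, the kinase that binds the phosphorylated chains, had 0, 34 and 0 counts at 2 months and 320, 122 and 195 at 18 months. Its FPKM was 0.0630 ± 0.109 at 2 months and 1.08 ± 0.476 at 18 months, with a log2 fold change of 4.03 (SE 1.58, edgeR adjusted p = 0.0776). Zap70 varied most among the aged libraries, with 1.83 times as much CPM in replicate 1 as in the mean of replicates 2 and 3. Its FPKM ratio to Lck was 0.318, 0.156 and 0.244 in the 18-month replicates and 0.107 in 2-month replicate 2.

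Lat, the scaffold downstream of ZAP-70, was the most abundant member at 18 months. It had 29, 227 and 65 counts at 2 months and 1963, 2143 and 2257 at 18 months. Its FPKM rose from 0.657 ± 0.637 to 11.9 ± 1.18, with a log2 fold change of 4.12 (SE 0.73, edgeR adjusted p = 0.0065). LAT is known from platelets, mast cells and NK cells as well as from T cells. Among the 18-month libraries Lat was lowest in replicate 1, at 31.7 CPM against 38.3 and 40.0 CPM. Cd8a was also lowest in replicate 1, at 10.4 CPM against 13.1 and 11.3 CPM, and so was Cd4, at 12.2 against 13.2 and 12.4. The other members were not lowest there. The 10 megakaryocyte and platelet genes took 0.186% of counts in that replicate and 0.270% and 0.264% in replicates 2 and 3. At 2 months the same list took 0.00405%, 0.0278% and 0.00458%, and its part in the Lat values was not tested. All 10 of its genes were above in every 18-month library (33.9% of all tested genes) and 9 were called higher (14.9%), but 7 of them reached the filter's count at 18 months and not in every 2-month library. Leaving out 1 library gave 4 to 10 calls, with 4 or 5 without 2-month replicate 3 or any 18-month replicate. Ppbp, a platelet chemokine gene and the most abundant of them, had 3, 1675 and 0 counts at 2 months and 46107, 65110 and 64193 at 18 months (edgeR adjusted p = 0.0822).

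Ranked by FPKM at 18 months, the order was Lat, Lck, Cd3d, Cd8a, Cd4, Cd8b1, Cd3g, Zap70, Cd3e and Cd247. Lat did not overlap Lck, Lck did not overlap Cd3d, and Cd3e did not overlap Cd247. Each pair of neighbours between Cd3d and Cd3e overlapped in FPKM. Cd3d, Cd8a, Cd4 and Cd8b1 (2.46 FPKM or more) did not overlap Zap70 and Cd3e (1.59 FPKM or less), and the order within each of these groups is not resolved. Over the 6 libraries the 45 pairs of members had Pearson correlations of log2(CPM + 0.5) of 0.853 to 0.998 (median 0.969), a description of points that share their libraries and that fall into 2 ages.

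**Figure D2:**
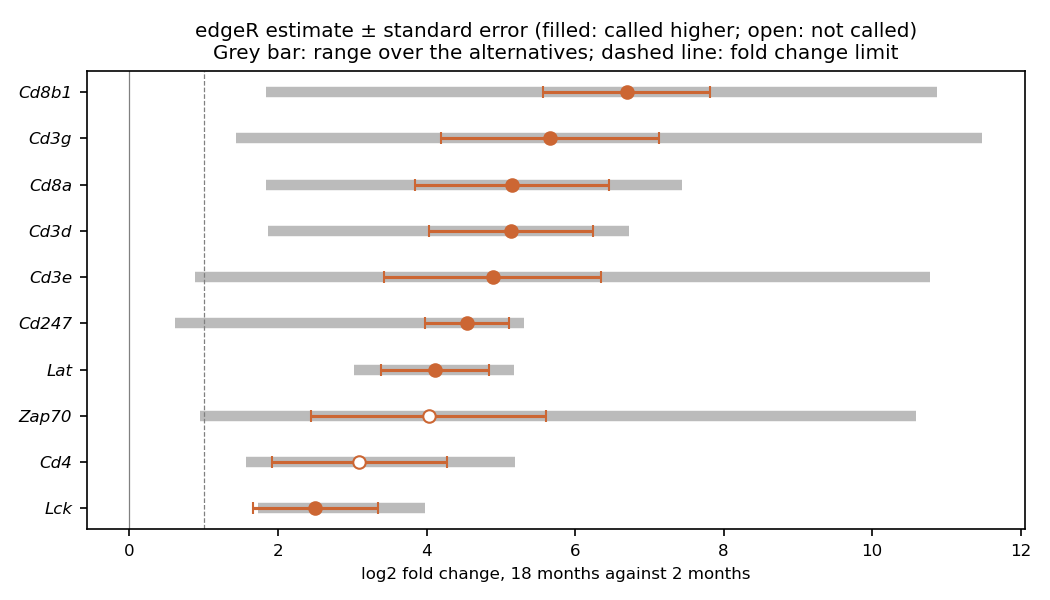
Log2 fold change of 18-month against 2-month cartilage (horizontal axis) for each member. Points are the edgeR estimates ± SE, filled where called, and grey bars span the alternatives, the upper ends for Cd3e, Cd3g, Cd8b1 and Zap70 being fits against libraries at 0. Every estimate is above 0, from 2.50 for Lck to 6.70 for Cd8b1.

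Except for Cd247, the young values spread mainly through replicate 2. Without that library, edgeR called all 10 members, including Cd4 and Zap70. Calls rose over the whole table too, to 5007 of 21489 tested genes higher, from 3047 of 20397 with all libraries. The library left out held the highest young value of every member except Cd247. Cd3e, Cd3g, Cd8b1 and Zap70 had 0 counts in both remaining young libraries. Taking 3 counts per library as the limit that a count of 0 allows (0.0655 CPM), the 18-month means were at least 62.6-fold higher for Cd3e, 102-fold for Cd3g, 66.8-fold for Cd8b1 and 54.9-fold for Zap70. These bounds hold against those libraries alone. In replicate 2 the same genes reached 9.64%, 5.62%, 2.58% and 17.8% of their mean 18-month CPM. Leaving out any of the 18-month replicates left 4 members called, and leaving out 2-month replicate 1 or 3 left 6. Lck lost its call in 10 of 17 alternatives, with an adjusted p of up to 0.136, whereas Cd3d, Cd8b1 and Lat kept theirs in all 17.

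The members were also set against Ptprc, which codes for CD45, the phosphatase found on nearly all nucleated blood cells and the one that keeps Lck active. Ptprc itself had 38, 5842 and 392 counts at 2 months and 35268, 25585 and 25029 at 18 months. The other young libraries have few Ptprc counts and up to 6 members at 0, and their ratios vary widely. Per 1000 Ptprc counts in replicates 1 and 3, Lck stood at 711 and 148, Lat at 763 and 166 and Cd247 at 105 and 30.6, above the 18-month values. Cd4, at 105 and 71.4, was also above its 18-month values. Cd3d stood at 132 and 0 and Cd8a at 158 and 0, while Cd3e, Cd3g, Cd8b1 and Zap70 stood at 0. In 2-month replicate 2, 7 of the 10 members were lower per 1000 Ptprc counts than in any 18-month library. Cd3e stood at 3.60 (95% exact binomial interval 2.22 to 5.50) against 9.44, 8.13 and 7.23. Cd247 stood at 0.685 (0.186 to 1.75) against 5.98, 6.45 and 8.19, and Cd8b1 at 1.03 (0.377 to 2.24) against 7.85, 8.99 and 10.3. These genes were thus scarcer in that library than its CD45 signal. Lck went the other way, with 52.2 (46.4 to 58.6) against 27.96, 29.6 and 31.0, and Cd4 had 33.7 (29.1 to 38.9) against 21.5, 28.8 and 27.9. Lat, with 38.9 (33.9 to 44.4), was below the 55.7, 83.8 and 90.2 of the aged libraries. The interval of Lck did not overlap those of the 18-month libraries, and that of Cd4 did. Zap70 lay within the aged range, at 5.82 (4.03 to 8.14). Trac, the constant gene of the receptor alpha chain, behaved like Lck, with 21.2 (17.6 to 25.4) against 12.8, 11.6 and 12.1, whereas Trbc1 in replicate 2 had 5.31 (3.60 to 7.54) against 13.1, 14.8 and 10.7. In replicate 3 Trbc1 stood at 17.9, above its aged values, on 7 counts. The direction against the aged libraries thus differed between young libraries for Lat, Cd247, Cd3d, Cd8a and Trbc1. The intervals cover counting error only, and no test was made.

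**Figure D3:**
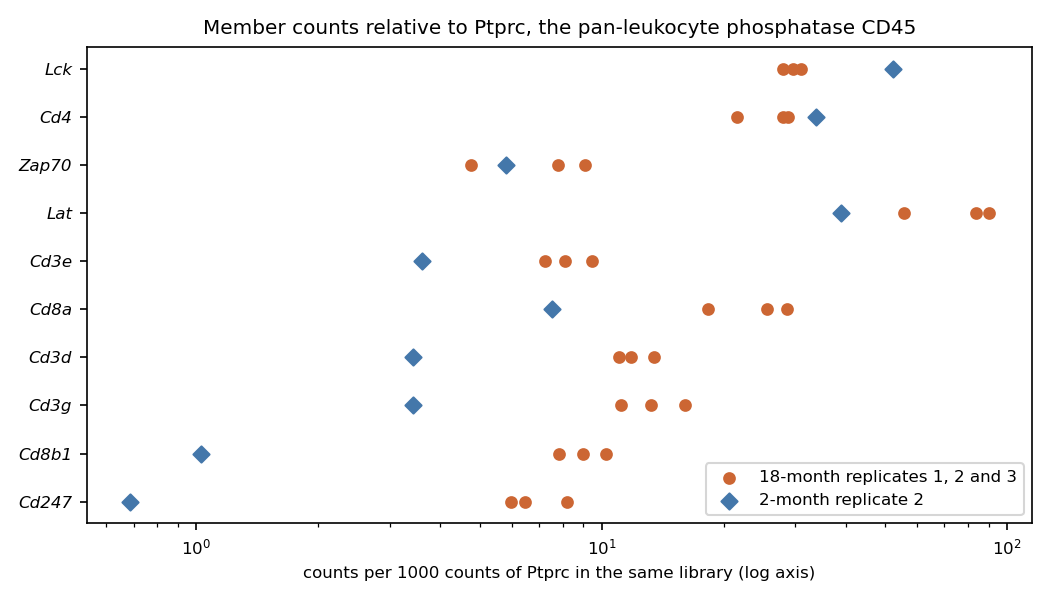
Counts of each member per 1000 counts of Ptprc in the same library (horizontal axis, log scale), for 2-month replicate 2 (diamonds) and the 3 18-month libraries (circles). Diamonds lie left of all circles for 7 genes, right of them for Lck and Cd4, and among them for Zap70, and no error is drawn.

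Outside the 10 members, 99 genes of the receptor, its signaling and T cell identity were counted, of which 97 were tested. Of these, 31 were called higher (all tested genes 14.9%) and 7 lower (21.3%), and 31 of the 97 reached the filter's count at 18 months but not in every 2-month library. Their median log2 fold change was 1.32, against −0.02 for all tested genes. The 7 genes of the receptor chains were not uniform, and 3 were called higher (14.9% of all tested genes). Of the 7, 5 reached the filter's count at 18 months and not in every 2-month library. Of all genes of that kind, 35.2% were called higher. Trbc2 and Trbc1, the beta constant genes, rose from 0, 40 and 8 to 678, 527 and 460 counts (log2 fold change 4.91, SE 1.24, edgeR adjusted p = 0.0206) and from 0, 31 and 7 to 462, 379 and 267 counts (4.65, SE 1.20, edgeR adjusted p = 0.0217). These calls are not stable: the 3 chain genes called fell to 0 without 2-month replicate 3 or any 18-month replicate, and were 2 without 2-month replicate 1, 6 without 2-month replicate 2 and 1 with a replicate block. Trbc1 and Trbc2 are near-identical, so the counting could split their reads. Trac had 8, 124 and 29 counts at 2 months and 451, 298 and 302 at 18 months, and was not called (2.51, SE 0.89, edgeR adjusted p = 0.0583). Of the gamma constant genes, Trgc4 rose from 0, 4 and 0 to 44, 15 and 18 counts (3.91, SE 1.20, edgeR adjusted p = 0.0385). Trgc2 had 0, 14 and 0 against 61, 89 and 78 counts (edgeR adjusted p = 0.0591), and Trgc1 stayed at 23 counts or fewer in every library (edgeR adjusted p = 0.234). The delta constant gene Trdc was highest in 2-month replicate 2, with 4, 91 and 11 counts at 2 months and 34, 9 and 32 at 18 months, and the ages overlapped (edgeR adjusted p = 0.640).

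Among 27 proximal adaptors and enzymes, which act at or just below the receptor, 13 were called higher (14.9% of all tested genes) and 1 lower (21.3%). Their median log2 fold change was 3.50. Of the 27, 9 reached the filter's count at 18 months and not in every 2-month library, a kind of gene of which 35.2% were called higher. Leaving out 1 library gave 8 to 21 called higher, with 8 without 18-month replicate 2 or 3 and 21 without 2-month replicate 2. The T cell adaptor Skap1, with 0, 13 and 0 counts at 2 months and 308, 215 and 160 at 18 months (log2 fold change 5.48, SE 1.35, edgeR adjusted p = 0.0189), was chosen after its values were seen. The 3 most abundant genes of the list are used in many cell types. The adaptor Grb2 and the Lck inhibitory kinase Csk rose by log2 fold changes of 1.299 (SE 0.13, edgeR adjusted p = 0.0016) and 1.38 (SE 0.22, edgeR adjusted p = 0.0049). The phosphatase gene Ptpn6 had 115, 3016 and 163 counts at 2 months and 18001, 11730 and 12429 at 18 months (edgeR adjusted p = 0.0654). Plcg1, the phospholipase recruited to LAT, moved the opposite way, from 9207, 8833 and 10228 counts to 3212, 2405 and 2341, and its log2 scale value fell by 2.11 (SE 0.16, edgeR adjusted p = 0.0010).

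Of 25 genes of the distal steps, 3 were called higher (14.9% of all tested genes) and 2 lower (21.3%), with a median log2 fold change of 0.35. The share called higher is near that of all genes, and the number was 7 without 2-month replicate 2 and 6 by DESeq2. Prkcq, Bcl10 and Orai1, which code for protein kinase C theta, an NF-kappaB adaptor and a calcium channel subunit, were those called higher. The genes called lower were Nfatc2, a calcium-driven transcription factor, and Ppp3ca, the catalytic subunit of the calcineurin that activates it. Nfatc2 fell by 1.22 (SE 0.25, edgeR adjusted p = 0.00997) and Ppp3ca fell by 1.499 (SE 0.24, edgeR adjusted p = 0.0045) on the log2 scale. The most abundant genes of the list moved little. Mapk3 had a log2 fold change of 0.03 (edgeR adjusted p = 0.910), Ppp3r1 one of 0.33 (edgeR adjusted p = 0.0365) and Akt1 one of 0.74 (edgeR adjusted p = 0.0037), all below the limit of 1.

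Of 16 tested costimulation and checkpoint genes (17 listed), 8 were called higher (14.9% of all tested genes), with a median log2 fold change of 2.21. However, 8 of the 16 reached the filter's count at 18 months and not in every 2-month library. Of all genes of that kind, 35.2% were called higher. Leaving out 1 library gave 3 to 11, with 3 or 4 without 2-month replicate 3 or any 18-month replicate. Cd6, a T cell surface receptor, had 0, 9 and 0 counts at 2 months and 306, 360 and 193 at 18 months (6.32, SE 1.27, edgeR adjusted p = 0.0095). Slamf1 had 0, 50 and 0 against 1192, 1688 and 1494 counts (6.29, SE 1.66, edgeR adjusted p = 0.0239), and Cd226 had 0, 136 and 0 against 2872, 3903 and 4504 (6.23, SE 1.88, edgeR adjusted p = 0.0365). CD226 and SLAMF1 are not limited to T cells, and CD226 is known from platelets and megakaryocytes. Like Lat, both were lowest among the aged libraries in replicate 1. The erythroid, mast cell and neutrophil lists also took their lowest aged share of counts there. The NK, B cell, dendritic cell and monocyte lists took their highest. The part of platelets in the Cd226 and Slamf1 values was not tested. Btla, an inhibitory receptor also found on B cells, rose from 148, 1024 and 233 to 2279, 2068 and 2279 counts (2.05, SE 0.68, edgeR adjusted p = 0.0487). Cd28, the main costimulatory receptor of T cells, was not called, with 1916, 881 and 1355 counts at 2 months and 1655, 392 and 409 at 18 months (−1.10, SE 0.65, edgeR adjusted p = 0.196). It was thus counted in all young libraries, whereas Cd3e had 0 counts in replicates 1 and 3.

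Of 17 T lineage transcription factors and homing genes, 4 were called higher (14.9% of all tested genes) and 4 lower (21.3%), so the share called lower is near that of all genes. Of the 17, 6 reached the filter's count at 18 months and not in every 2-month library, a kind of gene of which 35.2% were called higher. The number called higher was 9 without 2-month replicate 2 and 2 when any other single library was left out. Il2rb, the IL-2 receptor beta chain, had 21, 277 and 10 counts at 2 months and 1388, 1405 and 1435 at 18 months (3.62, SE 1.21, edgeR adjusted p = 0.0486). Tbx21, the factor T-bet, rose from 4, 21 and 7 to 118, 95 and 131 counts (3.19, SE 0.61, edgeR adjusted p = 0.0082). Foxp3, the factor of regulatory T cells, rose from 12, 13 and 24 to 146, 102 and 116 counts (2.59, SE 0.42, edgeR adjusted p = 0.0049). As with Cd247, 2-month replicate 2 did not stand out for Foxp3. The fourth gene called higher was Bcl11b. The 4 genes called lower had at least 358 counts in each 2-month library. Lef1, which codes for a relative of TCF-1 that acts in T cell development, had 1211, 1500 and 1317 counts at 2 months and 219, 149 and 132 at 18 months. On the log2 scale Lef1 fell by 3.29 (SE 0.20, edgeR adjusted p = 0.0007), Runx3 by 2.03 (SE 0.22, edgeR adjusted p = 0.0017) and Tox by 1.66 (SE 0.28, edgeR adjusted p = 0.0057). RUNX3 and LEF1 also act in skeletal tissue. The fall of these genes went along with the chondrocyte list, whose part in it was not tested.

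**Figure D4:**
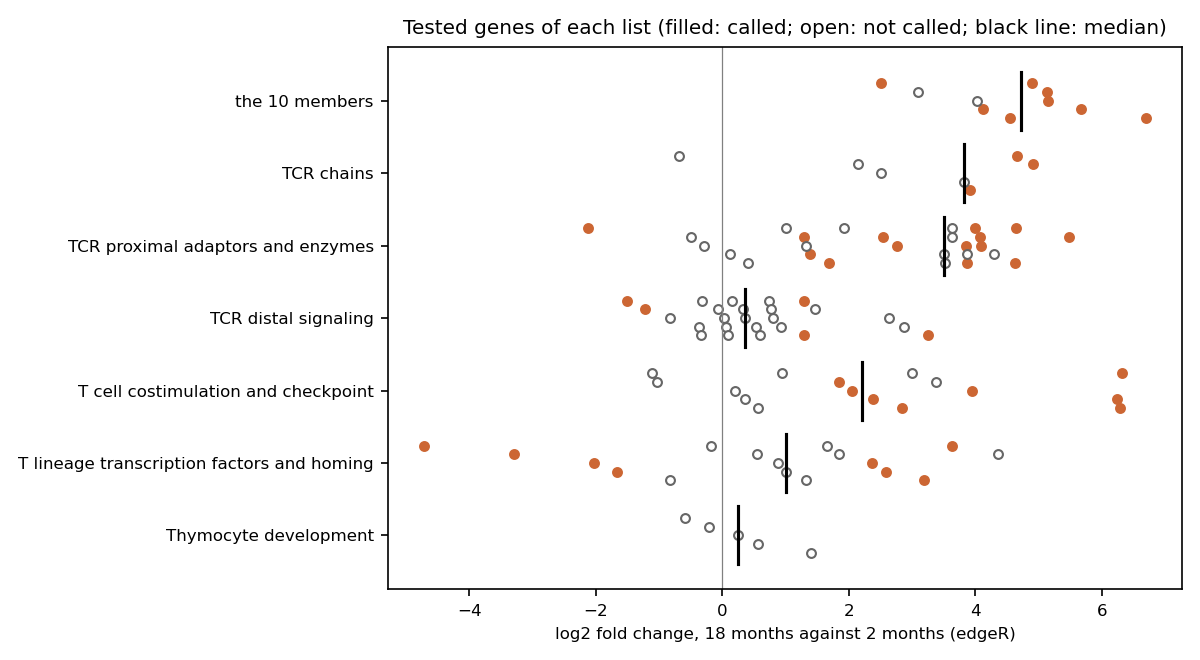
Log2 fold change of 18-month against 2-month cartilage (horizontal axis, edgeR) for every tested gene of each list, filled where called, with a black line at the median of the list. The 10 members lie between 2.50 and 6.70, and the T lineage list spreads to both sides of 0, with 4 genes called on each side.

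Genes of thymocytes and lymphocyte precursors were not called, a result that rests on 2-month replicate 2. Of 5 tested (6 listed), edgeR called 0 and DESeq2 called 0 of the 3 it tested, whereas edgeR called 4 higher without that library. With all libraries 1, Tcf12, passed an unadjusted p below 0.05, with a log2 fold change of −0.58. Dntt, the terminal transferase of lymphocyte precursors, had 0, 1206 and 0 counts at 2 months and 864, 510 and 605 at 18 months (0.57, SE 2.17, edgeR adjusted p = 0.841). The 2-month replicate 2 was thus above all aged libraries. Ptcra, which codes for the pre-T cell receptor alpha chain, had 10, 0 and 4 counts at 2 months and 0 in each 18-month library, and was not tested.

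Lists of other blood cells were examined in the same libraries. Of 14 NK and innate lymphocyte genes, which mark cells that share Cd247, Lck, Zap70 and Lat with T cells, 13 were above in every 18-month library and 6 were called higher. However, 13 of the 14 reached the filter's count at 18 months and not in every 2-month library, a kind of gene of which 74.3% were above and 35.2% called. Leaving out 1 library gave 1 to 14 calls, with 14 without 2-month replicate 2 and 1 or 2 when any other single library was left out. They took 8.69e-05% to 0.00241% of counts at 2 months and 0.0157% to 0.0168% at 18 months, and 6 of them had 0 counts in both 2-month replicates 1 and 3. Their most abundant gene, Nkg7, had 3, 382 and 3 counts at 2 months and 5917, 4764 and 4929 at 18 months (edgeR adjusted p = 0.0551). Of 12 B cell genes, 2 were above in every 18-month library (33.9% of all tested genes). EdgeR called 0, DESeq2 called 0 of the 5 it tested, and 0 had an unadjusted p below 0.05. Limma on log2(FPKM + 0.1) called 2, and without 2-month replicate 2 edgeR called 11 higher. They took 0.0334% of counts in 2-month replicate 2, more than the 0.0240% to 0.0284% of the 18-month libraries, and 0.00108% and 0.00153% in the other young libraries. The members took 0.0017% in 2-month replicate 2 and 0.0104% to 0.0109% at 18 months.

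The dendritic cell list, whose cells can carry CD8 alpha or CD4 in mice, took 0.0305% to 0.0334% of counts at 2 months and 0.0272% to 0.0342% at 18 months. Of its 12 genes, 8 were above in every 18-month library (33.9% of all tested genes) and 3 were below (34.6%). Their median log2 fold change was 2.07. Of the 12, 2 were called higher (14.9% of all tested genes) and 2 lower (21.3%), shares near those of all genes. The number called higher was 9 without 2-month replicate 2 and 0 when any other single library was left out. In this list 6 genes reached the filter's count at 18 months and not in every 2-month library. Of 12 monocyte and macrophage genes, 11 were above in every 18-month library (33.9% of all tested genes) and 4 were called higher (14.9%), or 0 to 11 when 1 library was left out (11 without 2-month replicate 2, 6 without 2-month replicate 1, 0 or 1 for each of the rest), and the list took 0.00622% to 0.132% of counts at 2 months and 0.710% to 0.910% at 18 months. Of 10 mast cell and basophil genes, 7 were above in every 18-month library (33.9% of all tested genes). Of the 8 tested, 4 were called higher (14.9%), 7 without 2-month replicate 2, and 2 without 2-month replicate 3 or any 18-month replicate. However, 6 of the 8 reached the filter's count at 18 months and not in every 2-month library, a kind of gene of which 74.3% were above and 35.2% called. The list took 0.000203% to 0.00421% of counts at 2 months and 0.0359% to 0.0445% at 18 months. All 12 neutrophil genes were above in every 18-month library (33.9% of all tested genes). EdgeR called 0, 2 had an unadjusted p below 0.05, DESeq2 called 10, and edgeR called 12 without 2-month replicate 2. All 9 erythroid genes in the table were above in every 18-month library (33.9% of all tested genes), and 2 were called higher (14.9%). The number was 9 without 2-month replicate 2, 0 when any other single library was left out, 7 by DESeq2 and 9 by limma. The list took 0.0204% to 0.568% of counts at 2 months and 2.35% to 3.13% at 18 months. The part of these cells in the values of the T cell receptor genes was not tested.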

How the data were processed

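Articular cartilage of wild-type mice was analysed in 3 libraries per age (2 and 18 months). Per the labels and methods, poly(A) RNA was made into strand-specific libraries with molecular identifiers and sequenced as read pairs. The deposited values are whole-number counts, which the authors did not normalize, and FPKM, which they scaled by transcript length and library total. The submitters' processing notes name cutadapt 1.9, HISAT2 2.0.4, UMI-tools, StringTie 1.3.4d, DESeq2 and edgeR. The genome build is not given in the sources used here. Gene symbols, Ensembl identifiers and positions came from the same table, and its functional annotation was not used.

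edgeR 4.0.16 in R 4.3.3 was applied to the counts (TMM, filterByExpr with a minimum count of 10, quasi-likelihood test) over all 20397 genes that passed, without a replicate block, and adjusted by the Benjamini-Hochberg method. The SE was derived from the estimate and its F statistic (estimate over root F). The limits (adjusted p of 0.05, log2 fold change of 1) follow the paper. An exact permutation test of 3 against 3 libraries cannot go below p = 0.1. The members and lists were chosen with earlier results of these data known. Named by rule were the members, all receptor chain genes, the 3 most abundant genes and all genes called lower in each pathway list, the 3 largest changes called in the costimulation and T lineage lists, the most abundant gene of each cell type list, the sex-linked genes and the 5 genes most correlated with the members; results for some of these genes are not reported here. The fit was tested on simulated data. No libraries of one age were duplicates: between them the median chi-square per gene was 6.32 to 48.8 times that of counting noise.

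The alternatives were median-of-ratios factors, total counts alone, library sizes without the 100 most abundant genes, no filter, a filter at mean FPKM 1, DESeq2 1.42.0, limma 3.58.1 on log2(FPKM + 0.1), + 1 and + 0.01 and on TPM (filter at mean FPKM 0.1), a replicate block and leaving out each library. Promoter sequences were taken from RefSeq. Python 3.11.15 with matplotlib 3.10.9 made the figures. Depth limits genes at 0: 3 counts per library were taken as the limit.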

Additional observations from a re-analysis of the deposited data

How the results depend on the processing

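Every tested member had a positive log2 fold change under each alternative, and fold changes of other genes were not compared across the alternatives. Of the 10 members, 8 were called higher, 7 with total counts alone, without the 100 most abundant genes or without a filter, 9 by DESeq2, and 7 to 10 by limma. With a mean FPKM of at least 1, 4 of the 6 tested were called. Leaving out 1 library gave 4 to 10 calls, with 4 without each of the 18-month replicates and 10 without 2-month replicate 2. Same-numbered libraries of the 2 ages had correlations of their deviations of 0.0769, 0.0797 and −0.0698, and not every library correlated best with its own number. With 3 libraries per age these values cannot decide whether the numbers pair the libraries, and the labels do not say. With the replicate block 5 members were called. Of the 97 pathway genes tested, 31 were called higher. With a mean FPKM of at least 1 it was 16 of 71, and leaving out 1 library gave 16 to 58, with 58 without 2-month replicate 2 and 16 to 18 without 2-month replicate 3 or any 18-month replicate. Over all genes, 3047 were called higher (2095 to 5007 when 1 library was left out, 5007 without 2-month replicate 2) and 4354 lower (2217 by limma on log2(FPKM + 1), 3499 to 4576 when 1 library was left out). The share of higher among called genes was 41.2%, 52.2% without 2-month replicate 2, 50.6% in limma on log2(FPKM + 0.1), 57.8% with a pseudocount of 1 and 34.8% on TPM, where the median over all genes was −0.33. Cd4 gained its call in 6 of 17 alternatives and Zap70 in 4 of 16, while Cd3e lost its call in 7 of 16, Cd3g in 4 of 16, Cd8a in 3 of 17 and Cd247 in 1 of 16. Except where fewer genes or libraries entered, the cause was not tested.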

Other observations

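Among the genes whose log2(CPM + 0.5) followed the mean of the 10 members most closely over the 6 libraries, out of 14012 genes at or above a mean FPKM of 1, were 1700020L24Rik, Myd88, Ear-ps9 and Glyr1, with Pearson correlations of 0.9998 to 0.9999. Myd88, an adaptor of Toll-like receptors, had 1043, 1855 and 1145 counts in 2-month replicates 1, 2 and 3 and 5721, 4780 and 4865 in the 18-month replicates. The measure ignores the size of the change, and the libraries fall into 2 ages, so these values are a description of likeness in rank and spacing over 6 points that share their libraries.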
